A study of Mus musculus with 6 samples.

Results

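The genes described here are interferon-stimulated genes of the IFIT and ISG families together with the transcription factors STAT2, IRF9 and IRF7. Of 9 genes on the list, 8 had at least 1 probe set that names a single gene, and these 8 had 11 probe sets, out of 12393 genes and 22626 probe sets on the arrays. Isg15 was represented only by a probe set that also names a second gene, and it was left out. The genes were chosen by their differences between unstable and stable lines on these same arrays, so those differences are given as a description and no p-value is attached to any of them.

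Transcripts were measured in 6 lines of mouse embryo fibroblasts, which are primary cells grown from embryos, with 1 array for each line. The chromosomally unstable lines were 2 BubR1 H/H lines and 1 CDC20 AAA/AAA line, and the labels call each of these alleles hypomorphic. BubR1 is a kinase of the mitotic spindle checkpoint, and CDC20 activates the ubiquitin ligase that ends mitosis. Each mutant line was wild type at the other locus. The stable lines were 2 BubR1 +/+ lines and 1 CDC20 +/+ line, wild type at both loci. All lines were treated alike and grown for 2 passages. Each unstable line shares a number in its title with 1 stable line, which gives the BubR1 pairs 9515 and 9938 and the CDC20 pair 10074. The CDC20 genotype rests on 1 mutant and 1 wild-type line, so genotype, line and pair cannot be told apart there, and whether the lines came from separate embryos is not stated in the sources used here. Values are log2 expression values as the authors normalized them with GCRMA, and a value under 4 is treated as being near background.

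Type I interferon binds a receptor of the subunits IFNAR1 and IFNAR2, whose kinases JAK1 and TYK2 phosphorylate STAT2. Phosphorylated STAT2 acts with IRF9 in the complex ISGF3, which binds the interferon-stimulated response element (ISRE) in the promoters of its target genes. Targets include antiviral effectors, factors such as IRF7 that amplify interferon production, and inhibitors such as USP18 that close the loop. In fibroblasts the pathway is known for a low constitutive level that rises when RNA or DNA is sensed in the cytosol.

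Promoters are shown for 4 genes in which the ISRE core was found and for 1 in which it was not, Ifit2, whose values varied least. They are RefSeq sequences of the build GRCm38.p6, each 300 bases from 250 before to 50 after the annotated start, written 5′ to 3′ on the gene's strand, with capitals marking the core GAAANNGAAA on either strand.
Ifit1, chr19:34640639-34640938, plus strand: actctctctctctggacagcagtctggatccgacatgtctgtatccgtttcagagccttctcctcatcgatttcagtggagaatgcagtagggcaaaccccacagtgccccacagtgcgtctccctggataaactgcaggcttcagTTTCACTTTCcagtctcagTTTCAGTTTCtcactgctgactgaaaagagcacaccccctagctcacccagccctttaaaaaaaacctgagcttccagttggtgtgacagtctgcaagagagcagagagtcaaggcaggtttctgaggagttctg
Ifit3, chr19:34583279-34583578, plus strand: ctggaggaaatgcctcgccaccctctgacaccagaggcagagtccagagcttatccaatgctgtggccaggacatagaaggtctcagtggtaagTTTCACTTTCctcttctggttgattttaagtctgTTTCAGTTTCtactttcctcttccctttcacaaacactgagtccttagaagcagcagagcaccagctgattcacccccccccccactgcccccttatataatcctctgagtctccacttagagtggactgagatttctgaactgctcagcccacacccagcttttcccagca
Rsad2, chr12:26456403-26456702, minus strand: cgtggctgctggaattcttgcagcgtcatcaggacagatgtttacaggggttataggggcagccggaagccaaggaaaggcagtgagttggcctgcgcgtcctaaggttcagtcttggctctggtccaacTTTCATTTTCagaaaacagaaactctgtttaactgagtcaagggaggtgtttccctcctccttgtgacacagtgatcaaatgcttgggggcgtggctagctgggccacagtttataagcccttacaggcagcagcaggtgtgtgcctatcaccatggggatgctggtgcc
Stat2, chr10:128270248-128270547, plus strand: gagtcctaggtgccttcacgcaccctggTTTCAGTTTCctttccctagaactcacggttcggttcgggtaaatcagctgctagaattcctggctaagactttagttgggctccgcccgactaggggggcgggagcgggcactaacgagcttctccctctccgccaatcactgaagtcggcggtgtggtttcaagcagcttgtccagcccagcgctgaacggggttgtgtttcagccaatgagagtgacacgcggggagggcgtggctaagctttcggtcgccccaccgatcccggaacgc
Ifit2, first of 2 starts, chr19:34550444-34550743, plus strand: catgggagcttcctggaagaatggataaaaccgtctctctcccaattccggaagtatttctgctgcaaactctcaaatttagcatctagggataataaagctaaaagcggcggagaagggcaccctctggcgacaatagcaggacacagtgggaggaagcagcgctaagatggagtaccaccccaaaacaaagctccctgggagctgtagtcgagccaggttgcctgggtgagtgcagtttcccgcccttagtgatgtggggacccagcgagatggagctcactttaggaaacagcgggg

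The Ifit1 promoter held 2 cores, beginning 104 and 85 bases before the start, and the Ifit3 promoter held 2, at 156 and 122 bases. Rsad2 held 1 at 120 bases and Stat2 held 1 at 222 bases before the start. No core was found in the windows of Ifit2, Irf7 or Irf9, which says only that these letters were not in those windows. The promoter table held 7 of the 8 genes, and Usp18 was not matched. Of all 32851 promoters of the same length 3.44% held the core at least once, and 0.225% held it 2 or more times, where overlapping matches count separately.

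In the CDC20 AAA/AAA line all 8 genes were higher than in the CDC20 +/+ line, beside 46.9% of all genes, and 7 of them by at least 1 on the log2 scale, Ifit2 being the exception. In the BubR1 H/H lines the same genes were higher by less, with a median difference of 0.53 in pair 9515 and 1.20 in pair 9938, against 2.00 in pair 10074. Over all 12393 genes the medians of these pairs were 0.004, -0.009 and -0.017. Of the 8 genes 7 were higher in the unstable line of every pair, Stat2 being the exception, beside 15.7% of all genes. The CDC20 pair showed a larger difference than either BubR1 pair in 8 of 8, beside 30.8% of all genes, and a difference of at least 1 in 7 of 8, beside 0.839%. Only Ifit1 was higher by at least 1 in both BubR1 pairs, beside 0.105% of all genes. Because the genes were chosen on this contrast, nothing is read from these counts.

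**Figure D1:**
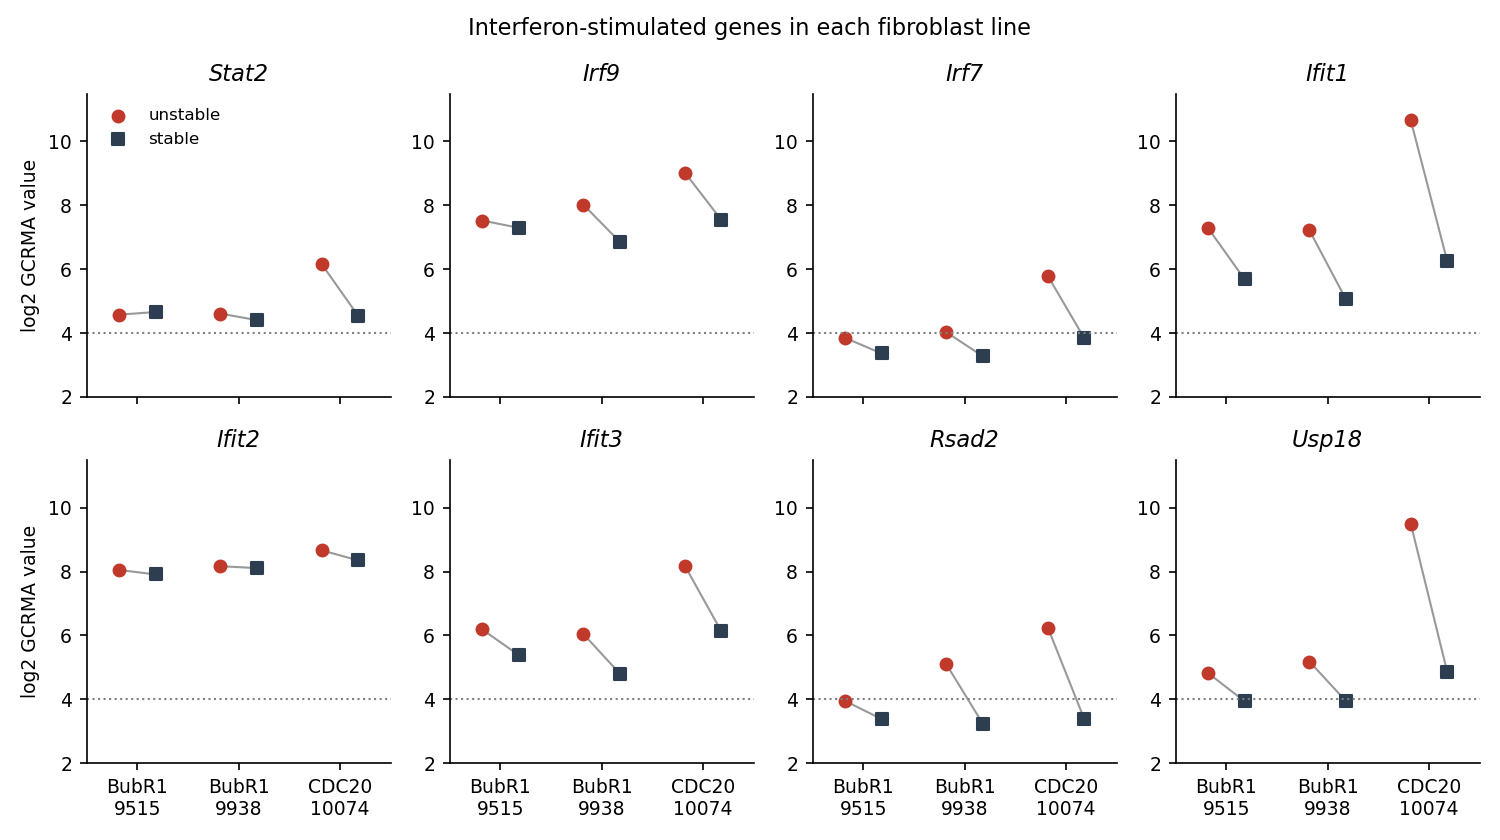
Log2 GCRMA values of the 8 genes in each line, with the unstable line (red circle) left of the stable line (dark square) of its pair and the dotted line at 4. The unstable CDC20 line is the highest point in every panel, and Irf7, Rsad2 and Usp18 have stable lines under 4.

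Among the transcription factors, Stat2, the DNA-bound complex's transactivating subunit, measured 4.58, 4.61 and 6.15 in unstable lines, in the order of pairs 9515, 9938 and 10074 used throughout, against 4.66, 4.40 and 4.53 in the stable lines. Only the CDC20 AAA/AAA line stood apart, and the other 5 lines lay within a narrow band in which the groups overlapped. Its pair differences were -0.08, 0.21 and 1.62, and the CDC20 difference equals 3.07-fold. The second probe set of Stat2 gave 3.20, 3.38 and 4.15 in unstable lines, against 3.35, 3.22 and 3.19 in stable lines, with differences of -0.15, 0.16 and 0.96. Both probe sets thus gave the same sign in every pair, but the second lay under 4 in 5 of 6 lines.

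Irf9, the subunit of ISGF3 that recognises the ISRE, measured 7.52, 8.02 and 9.02 in unstable lines, against 7.30, 6.85 and 7.54 in stable lines. The pair differences were 0.23, 1.16 and 1.48, so the 9938 pair came closer to the CDC20 pair here than for any other gene apart from Ifit2. The unstable line of pair 9515 lay 0.02 below the stable line of the CDC20 pair, and the groups therefore overlapped. Irf7, the factor that drives interferon-alpha genes after virus sensing, measured 3.85, 4.03 and 5.79 in unstable lines, against 3.36, 3.27 and 3.84 in stable lines. The groups were separated by 0.01 only, and 4 of the 6 values were under 4, so that the size of the differences, 0.49, 0.75 and 1.95, is approximate.

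The IFIT genes encode tetratricopeptide proteins that bind RNA, and IFIT1 is known for holding back viral RNA whose cap lacks the host's methylation. Ifit1 measured 7.29, 7.22 and 10.66 in unstable lines, against 5.69, 5.06 and 6.24 in stable lines. Every unstable line was above every stable line, with a gap of 0.97 between the lowest unstable and the highest stable value. The pair differences of 1.60, 2.16 and 4.42 equal 3.03-fold, 4.46-fold and 21.3-fold. The BubR1 H/H lines were within 0.07 of each other, and the difference between their pairs lay in the stable lines, the one of pair 9938 being 0.63 below that of pair 9515.

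Ifit3, whose product in human cells binds and stabilises IFIT1, measured 6.19, 6.04 and 8.18 in unstable lines, against 5.39, 4.80 and 6.13 in stable lines. The differences were 0.80, 1.24 and 2.05, the last being 4.15-fold. The groups overlapped, since the stable CDC20 +/+ line lay 0.09 above the lower BubR1 H/H line. Ifit2, the third family member measured, gave 8.05, 8.17 and 8.66 in unstable lines, against 7.91, 8.11 and 8.35 in stable lines. Its differences of 0.14, 0.06 and 0.31 were the smallest of the 8 genes in the CDC20 pair, and each was below the range of 0.44 among the 3 stable lines. The CDC20 pair difference was 1.24-fold for Ifit2 and 21.3-fold for Ifit1, although the genes lie in 1 cluster on chromosome 19. RefSeq places Ifit1bl1, Ifit3b and Ifit1bl2 between Ifit3 and Ifit1; no probe set names them, and how far they contribute to the Ifit1 and Ifit3 signals was not tested.

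Rsad2 encodes viperin, a radical SAM enzyme that makes a chain-terminating ribonucleotide. Its brightest probe set measured 3.95, 5.09 and 6.25 in unstable lines, against 3.38, 3.23 and 3.37 in stable lines. Every unstable line was above every stable line, but all stable lines and 1 unstable line were under 4, which makes the differences of 0.57, 1.86 and 2.87 approximate. The stable lines differed among themselves by 0.15. A second probe set gave differences of 0.75, 0.87 and 1.93, and only the CDC20 AAA/AAA line, at 4.47, exceeded 4. The third lay at 2.12 to 2.35 in every line and gave differences of -0.07, -0.04 and 0.08, so 2 of the 3 probe sets carried the difference.

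Usp18 encodes a protease that removes the ubiquitin-like protein ISG15 from its targets and also blocks JAK1 at the IFNAR2 receptor chain. It measured 4.82, 5.18 and 9.49 in unstable lines, against 3.94, 3.94 and 4.85 in stable lines. The CDC20 pair difference of 4.65, or 25.02-fold, was the largest of the 8 genes and also the highest over all 12393 genes in that pair. The BubR1 pair differences were 0.88 and 1.24, which rest on stable values just under 4. The unstable line of pair 9515 lay 0.03 below the CDC20 +/+ line, so the groups overlapped. Its excess of the CDC20 difference over the higher BubR1 difference, 3.41, compares with 2.26 for Ifit1 and 0.18 to 1.41 for the other 6 genes.

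**Figure D2:**
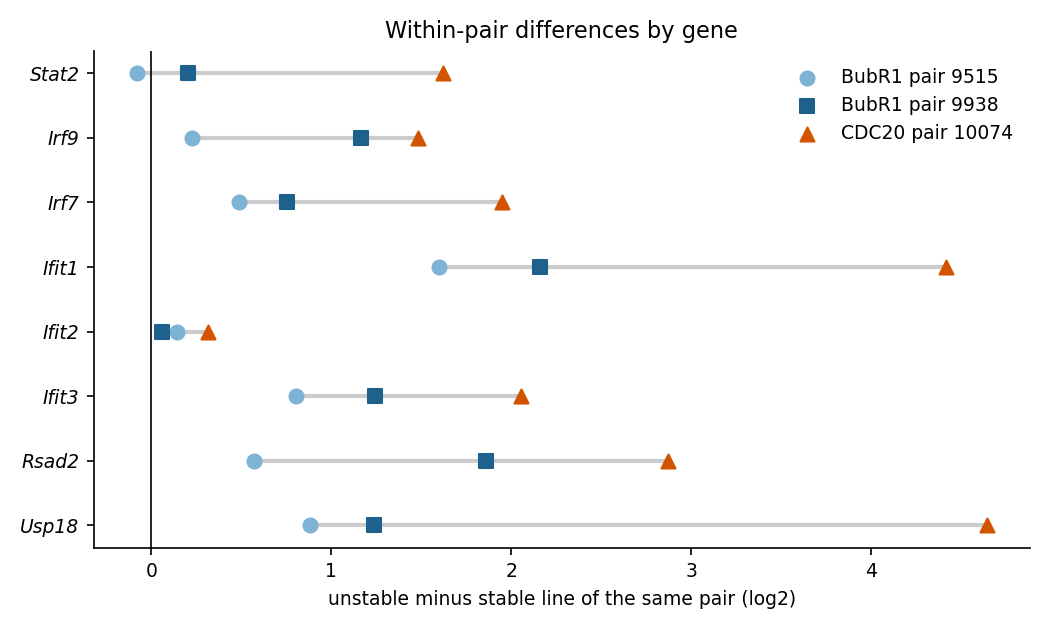
Difference between the unstable and the stable line of each pair, on the log2 scale, for the 8 genes; circles and squares are the BubR1 pairs 9515 and 9938, triangles the CDC20 pair 10074. The triangle lies furthest right for every gene, from 0.31 for Ifit2 to 4.65 for Usp18.

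Over the groups, Ifit1 averaged 8.39 ± 1.97 in unstable and 5.66 ± 0.59 in stable lines (SD, n = 3 each), Usp18 6.50 ± 2.60 and 4.24 ± 0.52, and Ifit3 6.80 ± 1.20 and 5.44 ± 0.67 in the same order. Irf9 averaged 8.19 ± 0.77 in unstable and 7.23 ± 0.35 in stable lines, Stat2 5.11 ± 0.90 and 4.53 ± 0.13, and Ifit2 8.29 ± 0.33 and 8.12 ± 0.22. Irf7 averaged 4.55 ± 1.07 in unstable and 3.49 ± 0.30 in stable lines, and Rsad2 5.10 ± 1.15 and 3.33 ± 0.09. The SD was larger among unstable lines for all 8 genes, and the CDC20 AAA/AAA line was the highest of its group for each. The genes were chosen on this contrast and no share over all genes is given for these counts, so nothing is read from them. The lowest unstable value exceeded the highest stable value for 3 of 8 genes, Irf7, Ifit1 and Rsad2, beside 3.67% of all genes. Without the CDC20 AAA/AAA line the median difference over the 8 genes was 0.61, against 1.21 with it.

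The wild-type line of pair 9938 was the lowest stable line for 6 of 8 genes, all but Ifit2 and Usp18, and the wild-type line of the CDC20 pair was the highest for 6, all but Stat2 and Rsad2. For these counts too no share over all genes is given, and nothing is read from them. The range among stable lines was 1.33 for Ifit3 and 1.18 for Ifit1, which for Ifit3 exceeds the differences of both BubR1 pairs. For Ifit3 and Stat2 the BubR1 H/H lines lay within 0.09 of the CDC20 +/+ line.

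With limma across 8382 genes, 0 genes, or 0%, had an adjusted p under 0.05 for unstable against stable lines. At an unadjusted p under 0.05 there were 359, a smaller share than the 0.05 that would fall there with no differences. Of the 8 genes 6 passed the filter on low values for that fit, and Irf7 and Rsad2 did not. The same fit gives the rest of the pathway, 112 genes on lists of roles, of which 83 passed the filter and 0 were called in either direction. Of these, 28 were higher in every pair, beside 16.9% of the genes tested, and their median differences were 0.08, 0.14 and 0.07. The limma fit above used no block for the pairs and pooled both mutant genotypes. With the pair number as a block, limma also called 0 genes, and the lowest adjusted p was 0.262. In that fit 1019 genes had an unadjusted p under 0.05, a larger share than 0.05.

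Of the 10 ligand genes 9 were under 4 on every array, namely Ifnb1, which encodes interferon beta, Ifng, and the interferon-alpha genes Ifna1, Ifna2, Ifna4, Ifna5, Ifna9, Ifna11 and Ifnab. Ifnb1 lay between 2.18 and 2.30 in all 6 lines. The remaining ligand gene, Ifnz, measured 5.59 in the CDC20 AAA/AAA line and 5.46 in CDC20 +/+. The receptor gene Ifnar1 differed by 0.19, -0.29 and -0.20 in pairs 9515, 9938 and 10074, and Ifnar2 by -0.03, 0.32 and 0.03. The interferon-gamma receptor genes Ifngr1 and Ifngr2 differed by -0.05 and -0.08 in the CDC20 pair, and Il10rb, a subunit shared with the interferon-lambda receptor, by -0.54. Of the 7 kinase and STAT genes tested, 6 were lower in the CDC20 pair, beside 54.5% of the genes tested, with a median of -0.23; Stat3 differed by 0.01, Stat5a by -0.20, Stat5b by -0.27 and Stat6 by -0.23 there.

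Among the sensors, Ifih1, which encodes the RNA sensor MDA5, measured 5.63, 6.08 and 7.88 in unstable lines, against 5.26, 5.40 and 6.44 in stable lines, and was higher in every pair. Dhx58, a related helicase gene, differed by 0.49, 0.32 and 1.11, and Ifi204, of the DNA-sensing p200 family, by -0.02, 0.26 and 1.74. Dhx58 lay under 4 in 3 lines, so the size of its differences is approximate. Zbp1, a sensor of Z-form nucleic acids, differed by 1.10 in the CDC20 pair but did not pass the filter. Adar, an RNA-editing enzyme gene, differed by 0.15, 0.14 and 0.97 and also lay under 4 in 3 lines. Adaptor genes gave smaller values in the CDC20 pair, Mavs differing by 0.06, Sting1 by -0.09, Myd88 by -0.06 and Traf6 by -0.14. The sensor gene Tlr7, under 4 in 2 lines, differed by -0.53, 0.08 and -1.40. Of 14 tested sensor and adaptor genes 6 were higher and 8 lower in the CDC20 pair, with a median of -0.06. Over the genes tested 45.2% were higher and 54.5% lower there. The kinase genes Tbk1 and Ikbke differed by -0.21 and -0.14. Tlr3 differed by 0.29 there, Aim2 by -0.06 and Samhd1 by -0.28, and Tlr9 was under 4 on every array. Among other IRF genes, Irf1, Irf2 and Irf5 differed by 0.04, 0.07 and -0.01 in the CDC20 pair. Irf8, under 4 in 3 lines, differed there by -1.27.

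Of 8 tested genes for ISG15 conjugation, ubiquitin ligases and PARPs, all were higher in the CDC20 pair, beside 45.2% of the genes tested, with pair medians of 0.25, 0.59 and 0.91. Trim21, an antibody-binding ubiquitin ligase gene, differed by 0.47, 0.72 and 1.25, and Trim30a by 0.23, -0.06 and 1.80. Trim34a differed by 0.48, 0.92 and 0.97 and Parp9 by 0.10, 0.71 and 0.96. Of 22 tested effector genes 20 were higher in the CDC20 pair, again beside 45.2%, and 12 in every pair, beside 16.9% of the genes tested. Their pair medians were 0.14, 0.24 and 0.78. The oligoadenylate synthetase-like gene Oasl2 measured 3.46, 4.44 and 8.61 in unstable lines, against 2.72, 3.27 and 4.91 in stable lines. Its values were under 4 in 3 lines, which makes its differences approximate. Rtp4 measured 5.18, 4.67 and 7.81 in unstable lines, against 5.11, 4.14 and 4.56 in stable lines. Slfn2, of the Schlafen family, differed by 0.47, 0.94 and 1.35.

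Antigen presentation genes had medians of 0.16, 0.17 and 0.16, with the peptide transporter gene Tap1 at 0.70 and the immunoproteasome gene Psmb8 at 0.44 in the CDC20 pair, and Tap2 and Tapbp at 0.15 and 0.28. Of 12 tested negative regulator genes 7 were lower in the CDC20 pair, which is near the 54.5% of all genes tested. Their median there was -0.12. Socs2 and Socs3, inhibitors of JAK signalling, differed by -0.51 and -0.71 in that pair and Pias2 by 0.24. Ptpn6, under 4 in 1 line, differed there by -1.64. None of these genes was called.

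**Figure D3:**
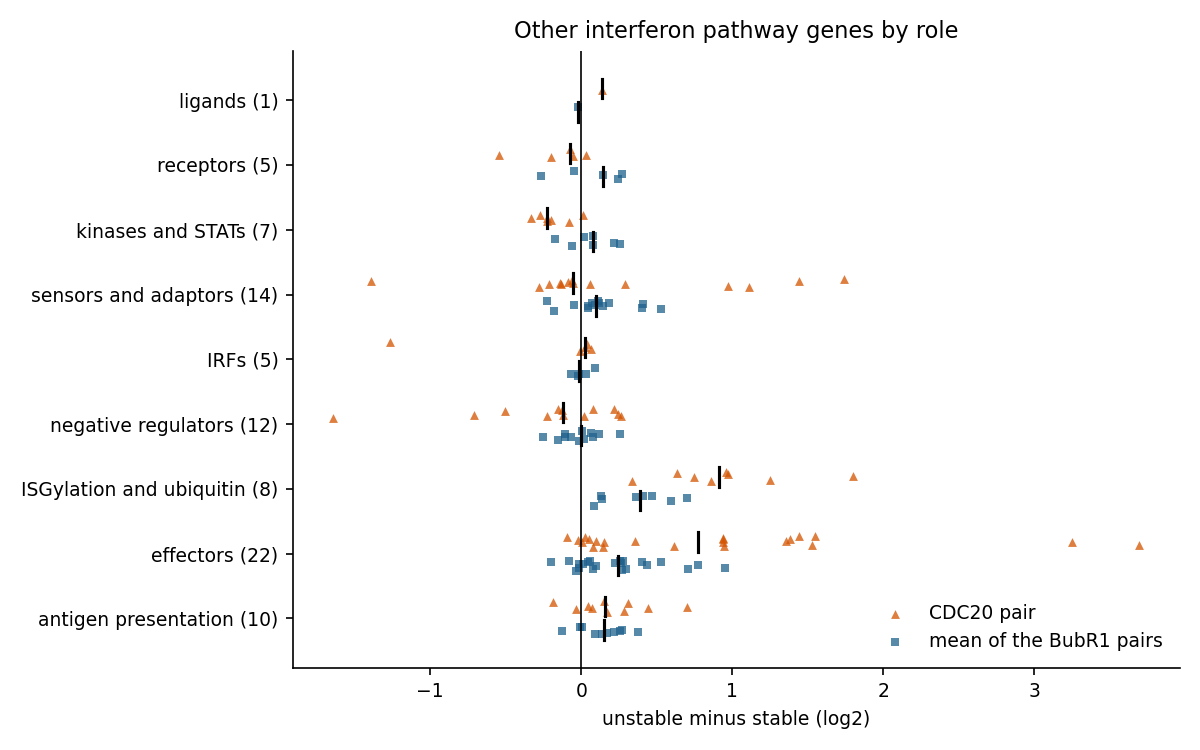
Unstable minus stable differences (log2) of pathway genes that passed the filter, by role, with the number of genes in parentheses; triangles are the CDC20 pair, squares the mean of the BubR1 pairs, and black bars are medians. In the CDC20 pair the medians are -0.08 for receptors, -0.23 for kinases and STATs, 0.78 for effectors and 0.91 for ISGylation and ubiquitin genes.

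The arrays' genes can be set out by the promoter core shown above. Of 17 tested genes with 2 or more cores, other than the 8 described, 5 differed by at least 1 in the CDC20 pair: Gbp3, Irgm1, Bst2, Oas1a and Trim21. Of 245 with 1 core 7 did, or 2.86%, and of 6571 with none 44 did, or 0.67%. The medians of these classes in the CDC20 pair were 0.17, -0.02 and -0.03, so most genes with a core did not differ by that much. In the 17 genes the medians of the BubR1 pairs 9515 and 9938 were 0.12 and 0.18. This comparison was chosen after the data were seen and carries no test. Irf7, at 1.95, and Irf9, at 1.48, had large CDC20 differences without a core in their windows. Gbp3, 1 of the 5 named genes, lay under 4 in every stable line and passed the filter only through the unstable lines.

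**Figure D4:**
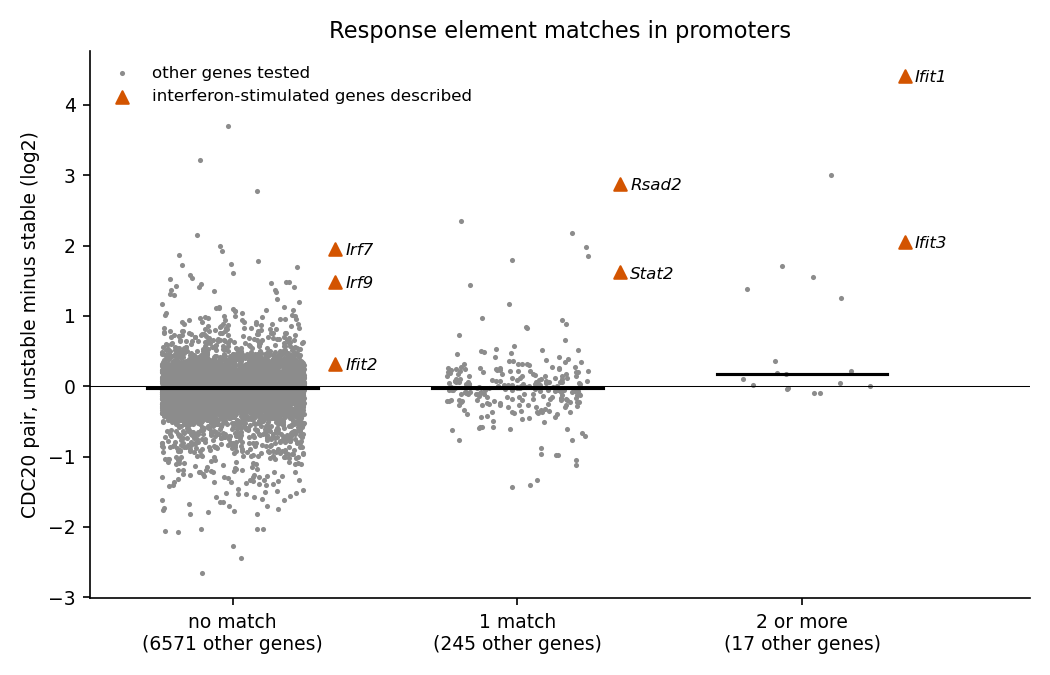
Difference between the unstable and the stable line of the CDC20 pair (log2) for genes with 0, 1, or 2 or more response element cores in the promoter window; grey points are tested genes, black bars their medians, and triangles the 7 genes with a promoter sequence. Ifit1 at 4.42 and Ifit3 at 2.05 hold 2 cores, Rsad2 at 2.87 and Stat2 at 1.62 hold 1.

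Over the 6 arrays each gene followed the mean of the other 7, with Pearson's r between 0.85 for Ifit2 and 0.996 for Irf7. The genes most like the mean of the 8 were Gbp3 (r = 0.993), Krt20 (0.991), Gbp7 (0.990), Ifi35 (0.987), Trim21 (0.976), Fuca1 (0.971), Helz2 (0.966), Adar (0.964), Irgm2 (0.963) and Mmp10 (0.958), out of 1309 tested genes with a range of at least 1. The guanylate-binding protein gene Gbp3 measured 4.02, 4.38 and 6.81 in unstable lines, against 2.99, 3.19 and 3.82 in stable lines, and Gbp7 differed by 0.71, 1.03 and 1.97. All stable values of Gbp3 were under 4, so it entered the 1309 genes only through the unstable lines. Without the lines farthest from the median, CDC20 AAA/AAA and the wild type of pair 9938, r over the other 4 arrays was 0.991 for Gbp3, 0.988 for Gbp7, 0.965 for Helz2 and 0.339 for the lysosomal enzyme gene Fuca1. The most opposite patterns were those of Ilkap (r = -0.992), Hmmr (-0.986), Pithd1 (-0.975), the cyclin gene Ccna2 (-0.974) and the centromere protein gene Cenpq (-0.972). These coefficients describe 6 arrays that share their pairs, and 1 line carries most of the variation.

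None of the nearest tested neighbours of the 8 genes was higher by 1 or more in the CDC20 pair. As 0.839% of all genes were, none was likely among so few, and nothing is read from it. On chromosome 19 the nearest tested genes on either side of the IFIT cluster, Lipa and Pank1, differed by -0.06 and -0.37 in the CDC20 pair, and the 304 tested genes of that chromosome had a median of -0.04. Beside Usp18, Pex26 and M6pr differed by 0.24 and -0.09, and beside Irf9, Emc9 and Ipo4 differed by -0.15 and 0.01. Beside Irf7, Rassf7 and Deaf1 differed by -0.25 and -0.17, and beside Stat2, Timeless and Pan2 differed by -0.89 and -0.02. Rsad2 lies between Id2 and Sox11 among tested genes, which differed by 0.24 and 0.95. Cmpk2, an effector gene next to Rsad2 in the RefSeq order, did not pass the filter and differed by 0.18, 0.71 and 1.74, with 4.06 in the CDC20 AAA/AAA line its only value over 4. Median differences of the chromosomes that carry the 8 genes lay between -0.11 and 0.02 in the CDC20 pair.

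Fibroblast markers were high in all lines, the 10 listed genes lying at 6.23 or above, and all 7 lymphocyte markers were under 4 on every array. Of 6 epithelial markers 2 passed the filter, Krt8 and Krt18, which differed by -0.60 and -0.59 in the CDC20 pair. Of 5 endothelial markers only Kdr passed, at 4.31 or below. Of 4 plasmacytoid dendritic markers 3 passed, Bst2, Tcf4 and Irf8, which differed by 1.55, 0.18 and -1.27 in the CDC20 pair. Macrophage and leukocyte markers were present and varied with the pair. Their summed level, on a log2 scale, was 12.74, 15.23 and 14.30 in unstable lines, against 13.13, 15.10 and 15.13 in stable lines. Of 19 tested markers all were lower in the CDC20 AAA/AAA line than in CDC20 +/+, again beside 54.5%, with a median of -1.20, and none of the 20 listed was higher in every pair. Tlr7, Irf8 and Ptpn6, which macrophages also express, differed by -1.40, -1.27 and -1.64 in the CDC20 pair. Irf8 was under 4 in 3 lines, Tlr7 in 2 and Ptpn6 in 1. Fewer cells of a type and less RNA per cell cannot be told apart in such samples. Bub1b, which encodes BubR1, measured 6.14, 6.43 and 7.00 in unstable lines, against 7.81, 8.51 and 7.61 in stable lines, so both BubR1 H/H lines were below every other line. Cdc20 measured 10.74, 10.34 and 10.03 in unstable lines, against 10.85, 11.15 and 10.83 in stable lines, and its differences of -0.81 in pair 9938 and -0.80 in the CDC20 pair were alike in size. Array medians lay between 6.16 and 6.20 in all 6 lines. In pair 9938 Xist, which female cells transcribe from an inactive X, reached 10.70 in BubR1 H/H and 11.16 in BubR1 +/+, and it was under 4 in the remaining 4 lines. The part of sex and of macrophage markers in the differences of the 8 genes was not tested.

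**Figure D5:**
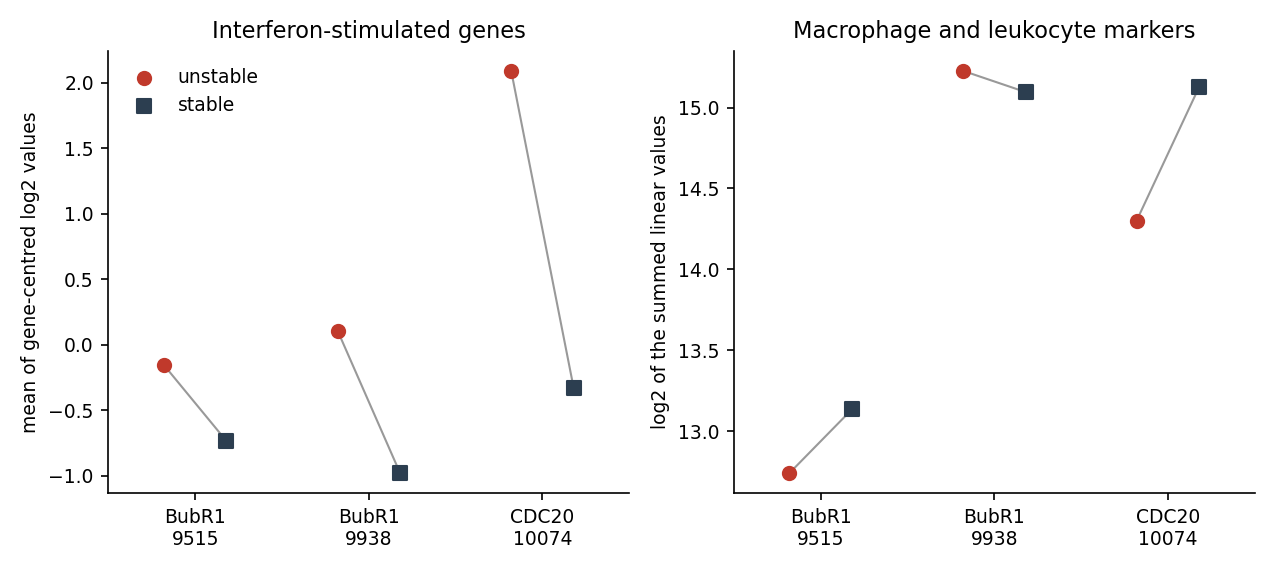
Left, mean of the gene-centred log2 values of the 8 interferon-stimulated genes by line; right, log2 of the summed linear values of 20 macrophage and leukocyte markers. In the CDC20 pair the unstable line is at 2.09 and the stable line at -0.33 on the left, and at 14.30 and 15.13 on the right.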

How the data were processed

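Expression of 6 fibroblast lines was analysed from 1 table of log2 values, which the authors deposited as processed values, 0.922 to 14.393, with 0 further columns. Per the submitters' processing notes R 2.15.3 and GCRMA 2.28.0 were used; GCRMA subtracts background, equalises array distributions and summarises probe sets, which compresses differences near background. Raw scans are not used here. Gene names came from the platform annotation (20380 with 1 symbol, 691 with several, 1555 not listed), and a gene was represented by its probe set with the highest mean. The fit across all genes kept those reaching log2 4 on 3 or more arrays, 8382 of 12393 genes. Unstable and stable lines were compared with limma 3.58.1 in R 4.3.3 (two-sided test, Benjamini-Hochberg adjustment, threshold 0.05) and no block. The fit was also run on simulated data, from which no rate of missed or false calls is given here. Described genes were kept whether or not they passed the filter.

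Deviations from the group means correlated, across genes, at 0.812, 0.681 and 0.602 within pairs 9515, 9938 and 10074, so the numbers in the titles were taken as pairs. The unstable lines differ from each other in genotype or in Xist, so no 2 of them shared an embryo. In Xist the stable line of pair 9938 likewise differs from the other stable lines. Whether the stable lines of pairs 9515 and 10074 shared an embryo is not stated. If they did, the spread between them would be technical only. Genes and lists were chosen with earlier results of these data known. The rule for names took every ligand, receptor and sensor gene, up to 4 tested genes with the largest absolute difference from each other role list, and the 10 most and 5 least similar patterns. Neighbours, genes with 2 or more promoter cores, marker genes and Cmpk2 were named outside it, after their values were seen, as was the promoter search itself. Sequences and gene order came from RefSeq, GRCm38.p6 (12369 of 12393 genes matched). The number of arrays limits the precision. Alternatives covered filters, probe set choice, normalization, a floor, the block, the variance prior and left-out lines.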

Additional observations from a re-analysis of the deposited data

How the results depend on the processing

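No gene was called in any of the fits tried: the count was 0 without a filter, with the stricter filter of at least 6, with the mean of probe sets, after quantile or median normalization, with values under 4 set to 4, with a trended robust prior, with each pair left out and with the pair number as a replicate block, which gave a lowest adjusted p of 0.262 and 1019 genes at an unadjusted p under 0.05. With 1 line left out it was 0 in all 6 fits. The median difference of the 8 genes, 1.21, was 0.61 to 1.54 with 1 line left out, lowest without the CDC20 AAA/AAA line, 0.86 without the CDC20 pair, 1.02 with the mean of probe sets and 1.03 with values under 4 set to 4. The BubR1 median of 0.86 ranged from 0.53 to 1.20 with a line left out and was 0.62 with that floor. The CDC20 median of 2.00 uses only the CDC20 pair, so leaving out a BubR1 line could not change it. That median could not be computed without a line of its own pair. The count of genes higher in every pair was 7 to 8 with a line left out, where only 2 pairs remain and the count cannot fall, and it was 5 with the floor, 5 of the 6 that pass the filter (an alternative added after seeing the data) and 4 of the 4 that pass the stricter filter, where fewer genes enter. With a line left out the Ifit2 difference of 0.172 ranged from -0.013 to 0.293, negative without the CDC20 AAA/AAA line. That setting keeps the CDC20 +/+ line without its partner; with the whole CDC20 pair left out Ifit2 was 0.10, and both BubR1 pair differences were positive. Without the CDC20 AAA/AAA line and without the whole pair, in that order, Stat2 was 0.06 and 0.06 against 0.58 with all lines, Irf9 0.54 and 0.70 against 0.96, Irf7 0.45 and 0.62 against 1.06, and Ifit1 1.59 and 1.88 against 2.73. Ifit3 was 0.68 and 1.02 against 1.37, Rsad2 1.19 and 1.21 against 1.77, and Usp18 0.76 and 1.06 against 2.26. Rsad2, at 1.77, was 0.98 with the mean of its probe sets and 1.11 with the floor, and Irf7, at 1.06, was 0.60 with the floor. Probe sets under 4 limit what can be said of Irf7, Rsad2 and Usp18 in stable lines.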
